A study of Mus musculus with 6 samples.

Results

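The cells described here are fibroblasts of the mouse aorta in which transcripts of Tbx20, a T-box transcription factor gene, were counted at least 2 times. They were chosen from all 60871 barcodes of the combined 10x Genomics matrix, in which each unique molecular identifier (UMI) stands for 1 captured transcript. A barcode entered if 500 or more genes were detected in it and mitochondrial UMIs made up no more than 20%, which left 53983 barcodes. A fibroblast gate then required that Dcn, Lum, Serpinf1 and Dpt together made up at least 0.5% of the UMIs, that the contractile genes Acta2, Tagln, Myh11 and Cnn1 made up less than 1.5%, and that Pecam1 and Ptprc had 0 UMIs. This gate held 14067 cells, of which 245 had at least 2 Tbx20 UMIs and are called the Tbx20 fibroblasts. They were 1.74% of the gate (exact Clopper-Pearson 95% interval 1.53% to 1.97%, counting error only). Of the other gate cells, 141 had 1 Tbx20 UMI and 13681 had 0. The latter serve as the reference.

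The study took aortic tissue for 3 samples labelled Best3FL/FL, which carry a floxed Best3 gene, and for 3 labelled Best3SMKO, in which the label places the Best3 knockout in smooth muscle. Best3 encodes bestrophin 3, of a family of chloride channel proteins, and the series title points to smooth muscle function in disease of the aorta as its subject. The labels used here give neither the promoter of the Cre driver nor the age of the mice, nor any pooling of animals, nor whether valve or heart tissue was dissected with the aorta. The barcodes carry 6 suffixes, called libraries 1 to 6, which match no sample label. No cell could therefore be given a genotype, no comparison of knockout with control was made, and no p-value is given. Best3 itself had 0 UMIs in the Tbx20 fibroblasts, which allows up to 1.31 CPM, that is UMIs per 1000000 UMIs.

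Tbx20 is known from heart development, where it acts with GATA and other T-box factors in the myocardium and in the endocardial cushions that form the valves. The interstitial fibroblasts of valve leaflets are known for a layered matrix rich in versican, periostin and collagen, and for sharing regulators such as Sox9 and scleraxis with cartilage and tendon. Fibroblasts of the aortic adventitia are instead known for Pi16, Clec3b and complement genes, and those of the trunk keep position-dependent Hox expression. The label "valve-like" for the cells described here was checked against the markers Wif1, Prg4, Meox1, Gata4 and Sox9.

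The Tbx20 fibroblasts were almost confined to 2 libraries. Library 2 held 196 of the 245, which was 10.3% of its fibroblast-gate cells (95% interval 8.94% to 11.7%). Library 5 held 44, or 0.989% of its gate (0.719% to 1.33%), and library 1 held 5, or 0.197% (0.0639% to 0.459%). Libraries 3, 4 and 6 held 0 among 1530, 2216 and 1421 gate cells, which allows shares of up to 0.196%, 0.135% and 0.211%. Library 2 thus stood far above every other library, and its cells supplied 1919945 of the 2292047 UMIs of the Tbx20 fibroblasts. For most of the called genes described below, levels are therefore given for libraries 2 and 5 separately. Without library 2 the share of Tbx20 fibroblasts in the gate was 0.403%. By library, total counts ran from 51813179 to 96144873 UMIs over 7475 to 16269 barcodes. A Tbx20 fibroblast had a median of 9538 UMIs and a reference cell 5866. Scrublet, a doublet caller, marked 2 of the 245 cells, against 3.02% to 11.3% of all quality barcodes by library. A total of 414 barcode sequences occurred in more than 1 library, and 7 of them belonged to Tbx20 fibroblasts.

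Tbx20 (ENSMUSG00000031965) is a protein-coding gene on the minus strand of chromosome 9, at 24718138 to 24774303 of GRCm38. The number of its UMIs, which chose the cells, ranged from 2 to 76 with a median of 7. It was 2 in 46 cells, 3 in 30, 4 to 9 in 64 and 10 or more in 105. The median was 10 in library 2, 3 in library 5 and 2 in library 1, so that the cells with many Tbx20 transcripts were nearly all from library 2, which supplied 101 of the 105. Other genes differed along this scale. Just outside the threshold, the 141 cells with 1 UMI had 86.9 CPM of Meox1, 107 of Prg4 and 1313 of Pi16. Just inside it, the 46 cells with 2 UMIs had 217 CPM of Meox1, 315 of Prg4 and 1098 of Pi16. In the 105 cells with 10 or more UMIs, Meox1 reached 782 CPM and Prg4 1166, and Pi16 stood at 80.8. The 94 cells with 3 to 9 UMIs had 220 CPM of Meox1, close to the cells with 2 UMIs, 440 of Prg4 and 475 of Pi16. The scale mixed the groups of cells described in the next paragraphs, since 40 of the 46 cells with 2 UMIs were in group 1 and 90 of the 105 with 10 or more were in group 2. Depth differed too, with medians of 7663 UMIs at 1 Tbx20 UMI, 7774 at 2, 7711 at 3 to 9 and 10763 at 10 or more.

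**Figure D1:**
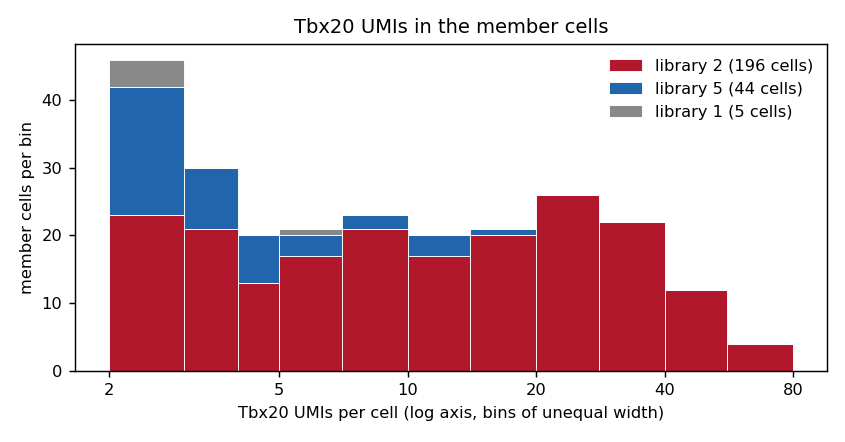
Number of Tbx20 UMIs per cell (horizontal log axis, bins of unequal width) against the number of Tbx20 fibroblasts per bin, stacked by library. The 44 cells of library 5 and the 5 of library 1 lie mostly at 2 to 4 UMIs, and the 105 cells with 10 or more UMIs are nearly all from library 2.

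Checked against the 5 markers, the Tbx20 fibroblasts were not uniform. Leiden clustering of the 245 cells alone gave 3 groups, the same at resolutions of 0.3 and 0.5. Resolutions of 0.8 and 1.2 gave 6 and 9 clusters, in which groups 1 and 2 were each divided further. The 21 cells of group 3 stayed together at both. Group 1 held 112 cells, with 63 from library 2, 44 from library 5 and 5 from library 1, so that every Tbx20 fibroblast of libraries 1 and 5 was in it. Group 2 held 112 cells and group 3 held 21, all of library 2. The groups were made from the expression of these cells, so differences among them are a description and no test. They are named by number and leading genes.

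Wif1 (chromosome 10, 121033960 to 121100650), which encodes a secreted Wnt inhibitor, divided the groups most clearly. Its level was 2.18 CPM in group 1, 524 CPM in group 2 and 2196 CPM in group 3, beside 0.377 to 7.96 CPM in the reference of the 6 libraries. Group 1 was thus at the reference level. Each cell was also thinned to 3000 UMIs, which left out 10, 6 and 1 shallower cells of groups 1, 2 and 3. Wif1 was then detected in 1 of 102 cells of group 1 (0.980%, interval 0.0248% to 5.34%; 1.79% unthinned). The share was 48.1% of 106 cells in group 2 (64.3% unthinned) and 90.0% of 20 cells in group 3 (95.2% unthinned). As a rough measure of background, Wif1 was found in 2.29% of the thinned Ptprc-positive cells of library 2 (3.33% unthinned, median depth 6122 UMIs). In those of library 5 the share was 1.56% (3.52% unthinned). Mixed cells were not removed from them, and 25.9% of those of library 2 also had Pecam1 before thinning. The share in group 1 was below both, with an interval that spans them. For Wif1 the data therefore went against the label "valve-like" in group 1.

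The other 4 markers were above the reference in all 3 groups. Prg4, which encodes the joint lubricant lubricin, had 143, 1322 and 715 CPM in groups 1, 2 and 3, against 28.5 to 42.8 CPM in the reference of the 6 libraries. Meox1 (chromosome 11, 101877510 to 101894374), a mesodermal homeobox factor, had 222, 789 and 222 CPM against 8.28 to 26.3. Gata4 (chromosome 14, 63198922 to 63271692), a zinc finger factor of the heart and its cushions, had 29.5, 164 and 145 CPM against 0.0994 to 3.47. Sox9, the master regulator of cartilage, had 210, 599 and 421 CPM against 35.1 to 68.3. None of these group values fell into the range of the reference libraries, and no share over all genes was counted. Detection per cell was lower in group 1: after thinning, Gata4 was found in 8.82% of its cells and Meox1 in 22.5%, against 40.6% and 76.4% in group 2. The matching shares in Ptprc-positive cells of library 2 were 0.705% for Gata4 and 2.12% for Meox1, below every group. Counted without thinning, all 5 markers were present in 49 of the 245 cells, and 13 cells had none of them. All of these 13 were in group 1. Of the 49, 44 were among the 112 cells of group 2, 4 among the 21 of group 3 and 1 in group 1. In the summed counts of groups 2 and 3, all 5 markers of the label were thus above the reference. They were seen together in a minority of the cells of these groups. The cells and the markers were chosen with earlier results of these data known. High marker levels therefore describe these cells and give no separate support for the label.

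Group 1 carried some genes of adventitial fibroblasts beside Tbx20. Pi16, a peptidase inhibitor gene that marks adventitial progenitor-like fibroblasts, had 873 CPM in group 1, 29.4 in group 2 and 99.6 in group 3, and 1378 to 1870 CPM in the reference. Clec3b, which encodes tetranectin, had 738 CPM in group 1 but 9.52 and 9.06 CPM in groups 2 and 3, and 1475 to 2185 CPM in the reference. For C3, the central complement component, the values were 2338, 62.3 and 90.6 CPM against 1814 to 2930, and for Dpep1, a dipeptidase gene, 912, 13.0 and 4.53 CPM against 843 to 1028. Cd248, which encodes endosialin, had 191 CPM in group 1 and 0 UMIs in both other groups. Group 1 thus lay within the reference range for C3 and Dpep1 and below it for Pi16 and Clec3b, and groups 2 and 3 were far below it for all 4. Other genes of the reference were low in group 1. There alone, the log2 ratio of Apod was -3.06, the log2 ratio of Hhip was -3.74 and the log2 ratio of C7 was -2.28. The airway genes Bpifa1 and Scgb1a1 were also among the leading genes of group 1, at 534 and 347 CPM against 0 in the other Tbx20 fibroblasts. Tcf21, a factor of epicardium-derived fibroblasts, was the regulator that set group 1 apart, at 221 CPM against 27.7 and 18.1 CPM in groups 2 and 3 and 12.7 to 30.0 CPM in the reference. It was at 224 CPM in the library 2 cells of group 1 and at 217 CPM in those of library 5, and Meox1 was at 158 and 316 CPM in the same cells.

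Group 2 was led by Pdlim3, Fmod, Ostn and Thbs1. Pdlim3, an actinin-binding LIM protein gene, had 1318 CPM in group 2 and 267 and 89.6 CPM in groups 3 and 1. Thbs1, which encodes thrombospondin 1, had 3854 CPM in group 2, 1725 in group 3 and 454 in group 1. The tendon factor gene Scx was at 103 CPM in group 2, against 13.6 and 3.28 CPM in groups 3 and 1. Ostn, which encodes the secreted peptide osteocrin, had 127 CPM in group 2 and 0 UMIs in group 1. Fmod, the collagen-binding proteoglycan gene fibromodulin, reached 519 CPM in group 2, within the 494 to 882 CPM of the reference libraries, and only 54.6 and 36.2 CPM in groups 1 and 3. Of the 3 groups, then, group 2 was highest for Scx and for Fmod, the latter only at the reference level. It also had the highest count of Tbx20, which chose the cells, at a median of 20.5 UMIs per cell. The 27 listed cartilage and tendon genes did not single it out. Their sum was 1893, 1834 and 933 CPM in groups 1, 2 and 3.

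Group 3 was led by Coch, Prss35, Cyp2e1, Adamts19, Ptn, Wnt16, Wif1 and Rspo3. Coch, which encodes the matrix protein cochlin, had 1041 CPM in group 3 and 11.2 and 3.28 CPM in groups 2 and 1. Wnt16, a Wnt ligand gene, had 181 CPM against 13.0 and 1.09, and Rspo3, a gene of the Wnt-enhancing R-spondins, had 856 CPM against 177 and 20.8. A Wnt ligand, a Wnt enhancer and the Wnt inhibitor gene Wif1 were thus highest in the same 21 cells. Vcan, the gene of the large proteoglycan versican, reached 2961 CPM there, against 546 in group 2, 434 in group 1 and 123 to 157 in the reference. The matrix gene Postn, which encodes periostin, was at 2232, 1465 and 145 CPM in groups 3, 2 and 1, and group 1 lay within the 31.7 to 223 CPM of the reference libraries. The MHC class II gene H2-Ab1 was at 294 CPM in group 3, above the 23.4 and 55.7 CPM of groups 2 and 1. The macrophage marker sum was 95.1 CPM in group 3, below the 182 and 176 CPM of groups 2 and 1.

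**Figure D2:**
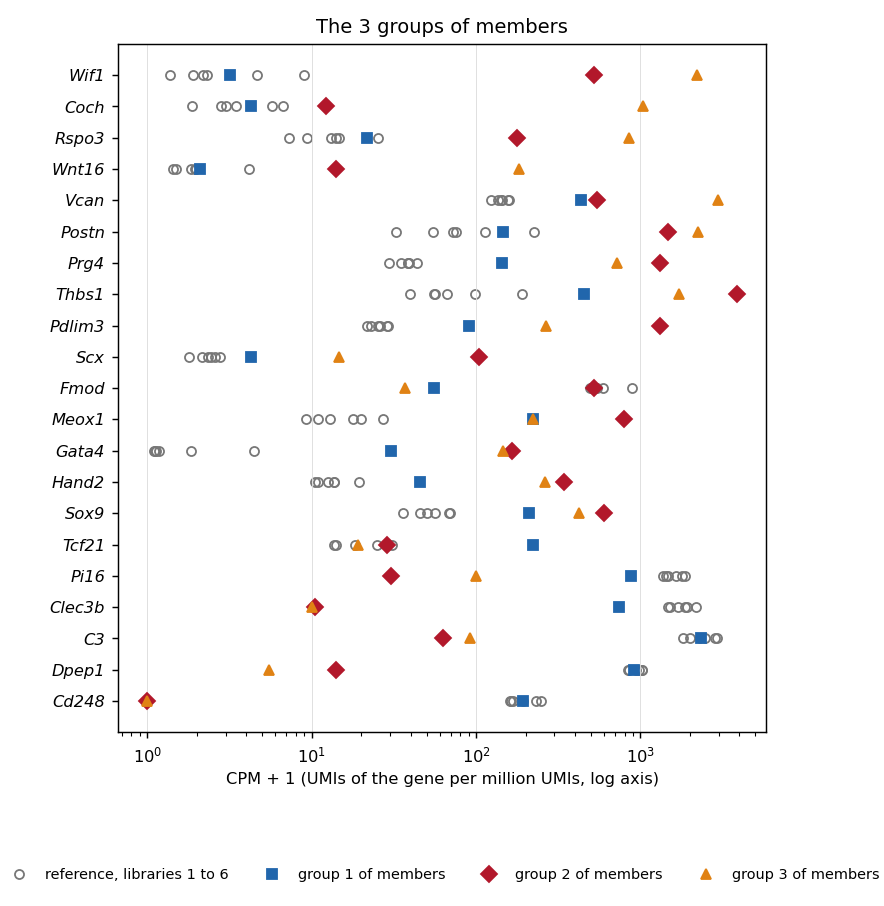
CPM + 1 (log axis) of 21 genes in the 3 groups of Tbx20 fibroblasts (filled symbols, 112, 112 and 21 cells) and in the reference of each of the 6 libraries (open circles). Group 3 is highest for Wif1, Coch, Wnt16 and Vcan, group 2 for Thbs1, Pdlim3 and Scx, and group 1 lies within the reference range for C3, Dpep1 and Cd248.

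Across all genes, the Tbx20 fibroblasts were set against the reference, with its CPM weighted over libraries by the UMIs of the Tbx20 fibroblasts in each. A gene was called higher at 50 CPM or more, a ratio of at least 2 after 5 CPM were added to both sides, and a level above the reference in both library 2 and library 5. Lower calls mirrored this. These are rules of size on 1 pooled matrix and not tests. Where called genes are said to lie outside all reference libraries, the share over all genes was not counted. Of 3857 genes that reached the minimum, 168 were higher, which is 4.36%, and 192 were lower, which is 4.98%. Without library 2, only library 5 had to agree in direction. In that setting 119 genes were higher, of which 45 were among the 168. The lower genes were then 128, of which 74 were among the 192. Library 2 therefore decides much of both lists, and without it the ratios of 54 of 73 named genes moved by more than 1.5 times. Of the 168 higher genes, 161 were at least 2-fold higher within library 2 and 55 within library 5, and for the 192 lower genes these counts were 190 and 83. By group, 69 of the higher genes were at least 2-fold higher in group 1, 154 in group 2 and 130 in group 3. All 3 groups shared 49 of the higher genes and 75 of the lower ones.

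**Figure D3:**
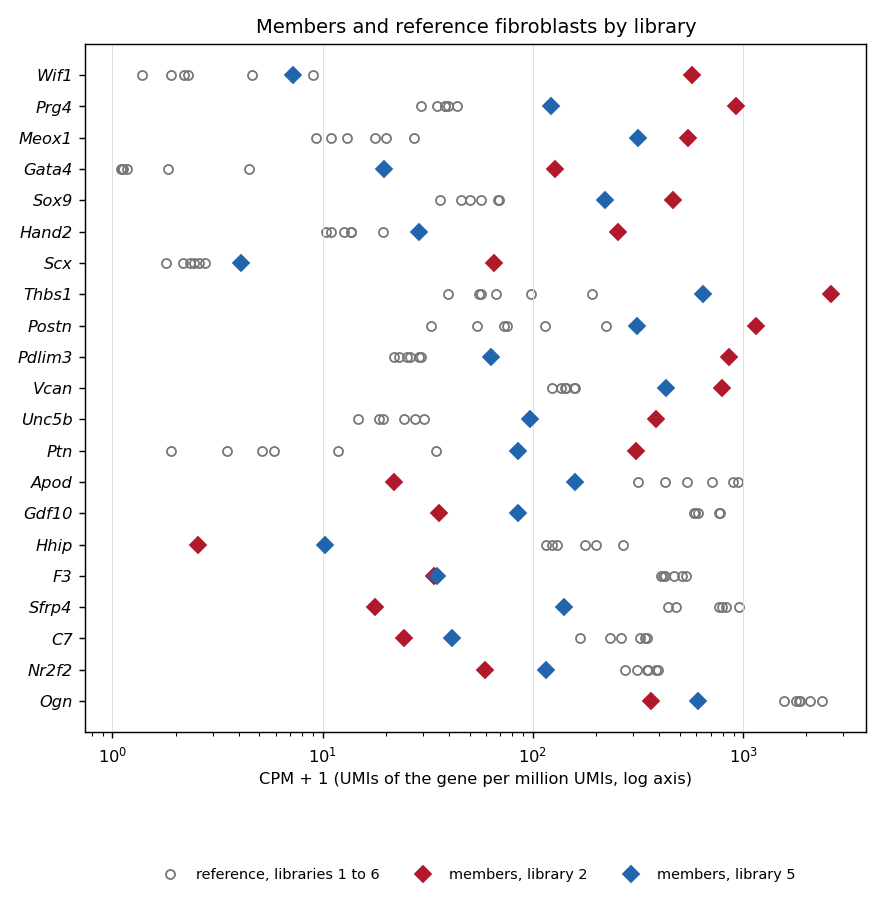
CPM + 1 (log axis) of 21 genes in the Tbx20 fibroblasts ("members") of libraries 2 and 5 (diamonds) and in the reference of each of the 6 libraries (open circles). From Prg4 to Ptn both diamonds lie above the reference, from Apod to Ogn both lie below it, and for Wif1 the library 5 value falls inside the range of the reference.

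Transcription factors gave calls in both directions. Of 51 listed cardiac and mesodermal factors, 22 reached the minimum. Of these, 6 were higher (27.3%) and 8 lower (36.4%), beside 4.36% and 4.98% of all genes tested. Their median log2 ratio was 0.40, beside 0.07 over all 3857 genes tested. The higher ones were Hand2, Msx1, Tcf21, Mef2c, Scx and Smad6, and among the 5 markers, listed apart, Meox1, Gata4 and Sox9 were also higher. Meox1 had 508 CPM in the Tbx20 fibroblasts (interval 479 to 538), with 545 CPM in library 2 and 316 in library 5, against 25.1 CPM in the weighted reference, a ratio of 17.0. Gata4 had 109 CPM, with 126 in library 2 and 18.6 in library 5, against 3.03 CPM, a ratio of 14.2. The Sox9 level was 426 CPM, with 465 and 220 in the 2 libraries, against 67.4 CPM, a ratio of 5.96. For each of these 3 genes, both libraries lay above all 6 reference libraries, which describes genes already called. Msx1, a homeobox gene of cushion mesenchyme, had 104 CPM in library 2 and 34.1 in library 5 against 22.5 to 29.3 CPM. Mef2c, a MADS-box factor gene of muscle and heart, had 148 and 112 CPM against 60.6 to 86.9 CPM. Smad6, an inhibitor of BMP signalling, was at 104 against 23.4 CPM, although its 21.7 CPM in library 5 lay inside the reference range of 14.7 to 24.4 CPM. Scx was at 54.5 against 1.32 CPM and had 64.6 CPM in library 2. The log2 ratio of Scx was 3.24, but 0.40 in library 5 alone and 0.30 without library 2. Tcf21 had 82.3 and 217 CPM in libraries 2 and 5 against 12.7 to 30.0 CPM and, as described above, was high in group 1 only.

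Hand2 and its divergent long noncoding partner Hand2os1 were called together. Hand2 encodes a basic helix-loop-helix factor required in heart development. Its gene model spans 57320983 to 57324633 of chromosome 8 (GRCm38, plus strand), and that of Hand2os1 spans 57281117 to 57324233 on the minus strand, so that the 2 overlap. Hand2 had 253 CPM in library 2 and 27.9 in library 5, against 9.42 to 18.3 CPM in the reference libraries, and its ratio was 9.96. Hand2os1 had 236 CPM in library 2 and 6.20 in library 5, against 2.58 to 12.3 CPM, and its ratio was 12.9. Hand2 was thus above all reference libraries in both libraries, and Hand2os1 only in library 2. No source used here says whether strand was used in counting, so part of the reads of one gene may be counted for the other. By group, Hand2 was at 44.8, 343 and 263 CPM and Hand2os1 at 43.7, 319 and 208 CPM. The 250 bases before the Hand2 start (RefSeq promoter table, GRCm38.p6, chr8:57320733-57320982, plus strand) are shown because both genes were called together and 173 of these bases also belong to the promoter window of Hand2os1. Capitals mark the GATA motif TTATCT, the reverse of AGATAA, whose first base is base 79 from the 5′ end.
Hand2 promoter: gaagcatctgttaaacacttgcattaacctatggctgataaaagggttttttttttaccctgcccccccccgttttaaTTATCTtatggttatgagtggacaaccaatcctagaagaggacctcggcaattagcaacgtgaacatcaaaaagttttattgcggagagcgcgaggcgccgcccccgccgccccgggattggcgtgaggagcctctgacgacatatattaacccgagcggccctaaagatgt
The motif is a description and not a shown binding site. It was searched as AGATAA on both strands in windows of 300 bases, and occurred in 17 of 171 windows of the 116 higher genes found in the table (9.94%), beside 11.2% of all 32851 windows. The T-box core GGTGTG was in 19.3% of the windows of higher genes and 19.0% of all. The SOX motif ACAATG was in 9.36% and 12.6%. The longer T-box half-site AGGTGTGA, which contains the core, was in 1 of the 171 windows and in 1.28% of all. The shares in higher genes were thus close to or below the background for each motif.

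The factors called lower were Meox2, Prdm6, Nr2f1, Nr2f2, Prrx1, Prrx2, Osr1 and Tshz2. Nr2f2, the orphan nuclear receptor COUP-TFII, had 58.3 CPM in library 2 and 115 CPM in library 5, against 273 to 394 CPM in the reference, which made it 5.36-fold lower in all. Prrx1, a paired-related homeobox gene of limb and trunk mesenchyme, had 192 and 174 CPM against 491 to 624, and was 3.12-fold lower. Meox2, the paralogue of Meox1, went the other way from it, at 6.25 and 18.6 CPM in libraries 2 and 5 against 52.1 to 59.0 CPM. All 8 factors were below the lowest reference library in library 2, and 7 of the 8 in library 5 too, where Osr1, at 93.0 CPM against a lowest reference of 84.9, was the exception. The 8 had already been called lower, so these counts describe the calls, and no share over all genes was counted.

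The 29 listed Hox genes, which encode position along the body axis, were low throughout the Tbx20 fibroblasts. Their summed level was 51.9 CPM in the Tbx20 fibroblasts (interval 43.0 to 62.1, from 119 UMIs). The sum was 38.5 CPM in library 2, 121 CPM in library 5 and 121 CPM in the 5 cells of library 1. In the reference it was 355 to 452 CPM by library, and 386 and 355 CPM in libraries 2 and 5. Cells with 1 Tbx20 UMI lay between, at 256 CPM. The 3 groups had 83.0, 33.7 and 18.1 CPM, so that the low level was shared by group 1, in its library 2 cells (57.0 CPM) as in its library 5 cells (121 CPM). Hoxa5 was the only Hox gene that reached the minimum, and it was called lower, at 12.2 against 52.0 CPM. Of the listed genes, 14 had at least 5 CPM in the reference of every library, and all 14 were below the lowest reference library in the Tbx20 fibroblasts, in group 1 and in group 2. Hoxa7, for example, had 3.93 CPM (interval 1.80 to 7.45) against 41.2 to 61.1 CPM, and Hoxc8 had 2.18 CPM (0.708 to 5.09) against 23.1 to 38.1 CPM. Both genes were chosen after their values were seen. How many of all genes fell below every reference library was not counted, so the count of 14 is a description.

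**Figure D4:**
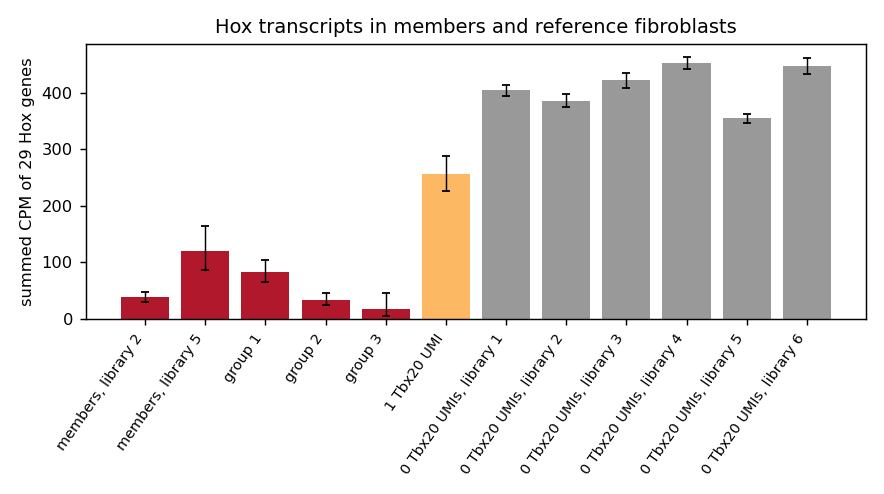
Summed CPM of 29 Hox genes (vertical axis, from 0) in the Tbx20 fibroblasts ("members") of libraries 2 and 5 and in their 3 groups (red), in gate cells with 1 Tbx20 UMI (orange) and in the reference of each library (grey). Error bars are exact 95% Poisson intervals and cover counting error only. Red bars stand at 18.1 to 121 CPM and grey bars at 355 to 452 CPM.

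Among matricellular genes, which encode matrix proteins that act on cells, 2 of 13 were higher (15.4%) and 1 lower (7.69%). The shares over all genes tested were 4.36% and 4.98%. The median log2 ratio of the list was -0.15. Thbs1 had 2615 CPM in library 2 and 642 CPM in library 5, against 38.4 to 190 CPM in the reference, a ratio of 20.1. Postn had 1154 and 313 CPM against 31.7 to 223 CPM, a ratio of 23.0. The log2 ratio of Postn was 4.53, and 3.26 against a reference pooled without weights. Both genes, already called higher, were above the reference range in both libraries. Smoc2, a calcium-binding matrix protein gene, was lower, at 255 and 580 CPM against 897 to 1371 CPM. Pdlim3, which had the largest ratio of all called genes at 23.9, was at 855 and 62.0 CPM against 20.8 to 28.3.

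Proteoglycan genes were split, with 3 of 19 higher (15.8%) and 5 lower (26.3%), beside 4.36% and 4.98% of all genes tested. Their median log2 ratio was -0.01. Vcan had 793 CPM in library 2 and 431 in library 5 against 123 to 157 CPM, a ratio of 4.57. Sdc3, a cell-surface syndecan gene, had 257 and 77.5 CPM against 11.5 to 25.8, a ratio of 8.06, and Itih5, whose protein binds hyaluronan, had 452 and 416 CPM against 102 to 184. On the lower side were the small leucine-rich proteoglycan genes Ogn, Omd and Podn, the glypican gene Gpc3 and Srgn. Ogn, or osteoglycin, had 363 and 611 CPM against 1555 to 2372 CPM and was 4.95-fold lower. The cell-surface proteoglycan genes Sdc3 and Gpc3 thus stood on opposite sides.

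In either direction, 3 of 18 collagen genes (16.7%) and 4 of 20 elastic fibre genes were called, beside 9.33% of all genes tested. Their median log2 ratios were -0.34 and -0.39. The summed level of the 30 listed collagens was 12459, 4744 and 4175 CPM in groups 1, 2 and 3. In the reference libraries it was 12802 to 16359 CPM. Collagen, named above for the matrix of valve leaflets, was thus low in transcripts of groups 2 and 3. Of 18 collagens, Col8a1, a short-chain collagen of vessels and valves, was higher, and Col1a2 and Col14a1 were lower. Col1a2 had 1747 CPM in library 2 and 3986 in library 5 against 5035 to 6545 CPM, and was 2.49-fold lower. Col8a1 had 79.7 and 363 CPM against 39.1 to 58.0 CPM. Its higher level came from group 1, at 267 CPM, and groups 2 and 3 had 37.2 and 18.1 CPM, below the reference range. Of 20 elastic fibre genes, Emilin1 was higher (202 and 164 CPM in libraries 2 and 5 against 74.1 to 103 CPM), and Fbln7, Emilin2 and the crosslinking enzyme gene Lox were lower. Lox was at 33.3 and 74.4 CPM in libraries 2 and 5, against 159 to 216 CPM. In the cartilage and tendon list, 3 of 9 genes were higher (33.3%), namely Sox9, Scx and Cilp, and Clec11a was lower (11.1%). The shares over all genes tested were 4.36% and 4.98%. Cilp, a cartilage intermediate layer protein gene, had 259 CPM in group 1, 96.9 in group 2 and 0 UMIs in group 3, against 58.7 CPM.

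Genes of secreted Wnt modulators differed in kind. Of 13 tested, with a median log2 ratio of 0.02, Frzb and Apcdd1 were higher and Sfrp2, Sfrp4 and the receptor gene Fzd4 lower. The higher share was 15.4% and the lower 23.1%, beside 4.36% and 4.98% of all genes tested. Frzb, a secreted Frizzled-related protein first known from cartilage, had 188 CPM in library 2 and 99.3 in library 5 against 12.4 to 22.7 CPM, a ratio of 6.91. Its relative Sfrp2 had 253 and 34.1 CPM against 1201 to 1880 CPM, and Sfrp4 had 16.7 and 140 CPM against 439 to 955 CPM. The 3 genes of 1 family thus stood on opposite sides of the reference, without overlap with its libraries. All 3 had already been called, so the lack of overlap describes the calls. Wif1 was not called by the rule, because its 6.20 CPM in library 5 did not exceed the 7.96 CPM of that library's reference. In library 2 it had 568 CPM against 3.64.

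In the BMP and TGF-beta list 6 of 27 genes were higher (22.2%) and 4 lower (14.8%), beside 4.36% and 4.98% of all genes tested. The median log2 ratio was 0.28. The ligand genes Bmp2, Inhba and Tgfb1, the receptor gene Tgfbr1 and the inhibitor genes Smad7 and Bambi were higher. Inhba, which encodes an activin subunit, had 74.0 and 71.3 CPM in libraries 2 and 5 against 13.4 to 26.5 CPM, a ratio of 3.71. Bmp2 had 56.3 and 49.6 CPM against 17.8 to 26.9 CPM, a ratio of 2.30. Smad7, which is induced by TGF-beta and inhibits its receptors, had 205 and 127 CPM, and 127 CPM lay inside the reference range of 67.4 to 138. The lower genes were Gdf10, Chrdl1, Bmp4 and Tgfbi. Gdf10, a BMP-related ligand gene, had 34.9 and 83.7 CPM against 585 to 778 CPM and was 15.6-fold lower. Chrdl1, a secreted BMP antagonist gene, had 19.8 and 27.9 CPM against 113 to 162 CPM. Of the 3 Notch pathway genes tested, Notch1 and its target Hes1 were higher (66.7%, beside 4.36% of all genes tested). Notch1 had 114 and 31.0 CPM against 11.9 to 21.8, and Hes1 had 214 and 192 CPM against 71.9 to 98.9.

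Other ligand genes were more often lower, with 3 of 32 higher (9.38%) and 9 lower (28.1%), beside 4.36% and 4.98% of all genes tested. Their median log2 ratio was -0.43. Ptn, the growth factor gene pleiotrophin, had 308 CPM in library 2 and 83.7 in library 5 against 0.895 to 33.7 CPM, a ratio of 14.6. Fgf2 was higher, at 161 and 55.8 CPM against 31.5 to 47.7, and so was Pgf, the placental growth factor gene, at 45.8 and 71.3 CPM against 8.96 to 24.2. The Pgf call rested on group 1, at 111 CPM, since groups 2 and 3 had 10.4 and 13.6 CPM. Cxcl12, the chemokine ligand of Cxcr4, had 138 and 251 CPM against 654 to 904 CPM, and was 5.10-fold lower. The lymphatic growth factor gene Vegfd had 23.4 and 80.6 CPM against 257 to 441. The eotaxin gene Ccl11 had 19.8 and 189 CPM against 187 to 295, so that library 5 reached the reference range. Among genes outside these lists, the axon guidance receptor gene Unc5b had 386 CPM in library 2 and 96.1 in library 5 against 13.8 to 29.2 CPM. Cox4i2, a subunit gene of mitochondrial cytochrome c oxidase, had 123 and 18.6 CPM against 0.994 to 4.06. The inward rectifier potassium channel gene Kcnj15 had 74.5 and 6.20 CPM against 0.567 to 2.31, and the collagen-modifying prolyl hydroxylase gene P3h2 had 79.2 and 12.4 CPM against 2.32 to 3.11. These 4 genes had ratios between 9.79 and 14.7 and were highest in group 2. Library 2 set the size of these ratios. Without it, the log2 ratio of Unc5b was 1.70 in place of 3.35, the log2 ratio of Cox4i2 was 1.41 in place of 3.87, the log2 ratio of Kcnj15 was 0.52 in place of 3.33 and the log2 ratio of P3h2 was 1.19 in place of 3.29.

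Genes of adventitial fibroblasts and of complement gave many lower calls. Of 21 listed adventitial subtype genes, 13 were lower (61.9%) and 0 higher. Of 12 complement genes, 7 were lower (58.3%) and 0 higher, beside 4.98% lower and 4.36% higher of all genes tested. Their median log2 ratios were -1.56 and -1.45. Apod, an apolipoprotein gene, had 20.8 CPM in library 2 and 158 in library 5, against 315 to 946 CPM, and was 18.7-fold lower. Hhip, which encodes a hedgehog-binding inhibitor, had 1.56 and 9.30 CPM against 114 to 266 CPM. F3, the gene of tissue factor, had 32.8 and 34.1 CPM against 406 to 535 CPM, and C7, of the terminal complement pathway, had 23.4 and 40.3 CPM against 167 to 348 CPM. For these 4 genes both libraries lay below all reference libraries. They were among the lowest ratios called, so this describes the calls, and no share over all genes was counted. The lower calls were not alike over the groups, as C3 at 2338 CPM in group 1 was inside its reference range of 1814 to 2930 CPM. Hhip, at 6.55 CPM in group 1, and C7, at 52.4 CPM, were below theirs. The metalloproteinase and inhibitor list had 1 higher (6.25%) and 6 lower (37.5%) genes of 16 and a median log2 ratio of -0.82. It included Mmp3, at 322 and 388 CPM against 844 to 1221, and Timp2, at 1408 and 1895 CPM against 3000 to 3381.

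**Figure D5:**
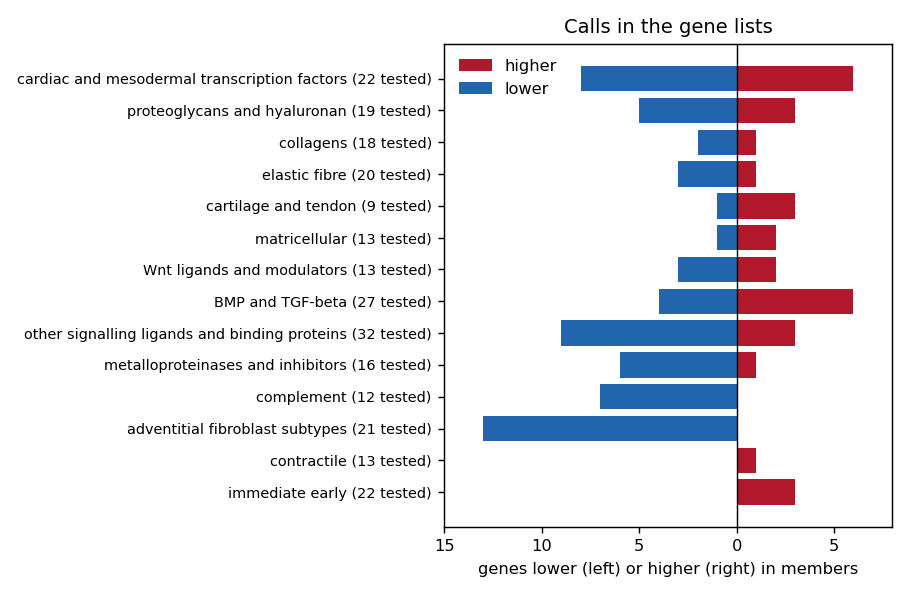
Number of genes called lower (blue, left of 0) or higher (red, right of 0) in the Tbx20 fibroblasts ("members") for 14 gene lists, with the number tested in brackets. The adventitial list has 13 lower and 0 higher genes, and cardiac and mesodermal transcription factors have 6 higher and 8 lower. Of all genes tested, 4.36% were higher and 4.98% lower.

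The called genes were also read against named kinds of fibroblast within the reference. Reference cells with at least 2 UMIs of Fmod (5138 cells), C7 (4315) or Pi16 (9258), which overlap, were each set against the Tbx20 fibroblasts. Of the 168 higher genes, 153, 167 and 161 were also at least 2-fold higher over these 3 kinds. Of the lower genes, 174 of 192, 184 of 191 and 187 of 191 were at least 2-fold lower. These kinds are parts of the reference that made the calls, so the agreement was partly built in and is no separate support. Prg4, at 793 CPM in the Tbx20 fibroblasts, was at 14.8, 20.9 and 35.8 CPM in the Fmod, C7 and Pi16 cells. Gdf10, at 43.2 CPM, was at 819, 903 and 720 CPM in them.

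Of 13 contractile genes, 1 was higher (Synpo2, 7.69%), and of 22 immediate early genes 3 were higher (13.6%), beside 4.36% of all genes tested. Their median log2 ratios were 0.21 and -0.16. Nr4a2, an orphan nuclear receptor gene of the latter list, had 1089 CPM in library 2 and 763 in library 5 against 186 to 425 CPM, a ratio of 4.11. Egr2 and Egr3 had ratios of 2.79 and 2.11. Synpo2 had 80.7 CPM in library 2 and 34.1 in library 5, the latter inside the reference range of 23.7 to 36.3 CPM. Immediate early genes are known to respond to tissue dissociation, whose part in these values was not tested.

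Markers of other cell types were checked as summed levels. The sum of 14 cardiomyocyte markers was 55.4 CPM, against 43.0 in the weighted reference and 10.8 to 47.4 by library, with Myh7, Myl3 and Nppb at 0. The sum of 12 endothelial markers was 247 against 277 CPM, of 10 macrophage markers 171 against 197, of 9 Schwann cell markers 120 against 112 and of 5 pericyte markers 425 against 431, with the pericyte genes Abcc9 and Kcnj8 called lower. Group 3 stood apart in 2 of these sums. Its pericyte sum was 983 CPM, against 275 and 436 in groups 1 and 2 and 362 to 588 in the reference libraries, and its Schwann cell sum was 240 CPM, against 45.9, 156 and 76.5 to 132. The part of these markers in the group 3 profile was not tested. The adipocyte sum was 0.436 against 0.390 CPM, with Adipoq, Cidec, Lep and Retn at 0, and the melanocyte sum 29.7 against 52.1 CPM, with 4 of 6 genes at 0. Mesothelial markers summed to 143 against 212 CPM but differed by group, at 350 CPM in group 1, 2.60 in group 2 and 22.6 in group 3. Their part in group 1 was not tested. Epithelial markers summed to 144 against 63.2 CPM and stood apart in library 5, at 1005 CPM in its Tbx20 fibroblasts against at most 416 in a reference library. The airway secretory genes Bpifa1 and Scgb1a1 were at 1517 and 986 CPM in these 44 cells, against 478 and 403 CPM in the reference of library 5, and both had 0 UMIs in the Tbx20 fibroblasts of library 2. Airway RNA thus moved with the Tbx20 fibroblasts of library 5, and its part in their other values was not tested.

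Tbx20 transcripts were not limited to the fibroblast gate. Of 611 quality barcodes with at least 2 Tbx20 UMIs, 366 lay outside it. Of these, 130 were in the contractile gate, with 69 from library 2, and 216 had Pecam1 without Ptprc, with 125 from library 2. Another 15 had Ptprc, and 5 fell short of the fibroblast genes alone. Library 2 was highest in each of these gates, at 5.40% of contractile cells, 4.40% of Pecam1 cells and 1.59% of Ptprc cells with at least 2 Tbx20 UMIs. In libraries other than 2 these shares did not exceed 0.844%, 0.928% and 0.158%. The 1.59% in Ptprc cells, from which mixed cells were not removed, serves as a rough measure of background in library 2, beside 10.3% in its fibroblast gate. Its part in the cells with few Tbx20 UMIs was not tested. In the contractile Tbx20 cells, Prg4 and Meox1 had 9.66 and 9.13 CPM, below the 793 and 508 CPM of the Tbx20 fibroblasts, and Hand2 had 61.7 CPM against 27.6 in the whole contractile gate.

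The Pecam1 limit left out cells much like the Tbx20 fibroblasts. Of the 216 Tbx20 cells with Pecam1, 97 met the limits for fibroblast and contractile genes, 80 of them in library 2. They had 1 Pecam1 UMI in 64 cells, 2 in 13 and 3 or more in 20. Wif1 was at 501 CPM in these 97 cells, Prg4 at 435, Meox1 at 256, Gata4 at 100 and Sox9 at 349 CPM. The endothelial cadherin gene Cdh5 was at 46.8 CPM in them, 5.24 CPM in the Tbx20 fibroblasts and 297 CPM in the whole Pecam1 gate. All 5 markers were thus well above the reference in these cells, and Cdh5 lay between the 2 gates. With Pecam1 UMIs allowed, the share of Tbx20 cells in the gate was 2.01%, from 342 cells.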

How the data were processed

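The 10x Genomics matrix holds whole-number UMI counts per gene and barcode, not scaled, as deposited by the authors (55450 genes, 60871 barcodes). Its header gives cellranger-6.1.2 as the software. Per the submitters' processing notes, the tools were bcl2fastq 5.01, Cell Ranger 3.1.0 and Seurat 3.1.1 with build GRCm38. No source used here states the use of strand or any equalising of depth between libraries. Coordinates come from GENCODE M21, in which all 55450 identifiers were found.

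No file used here maps the 6 barcode suffixes to samples, so the 6 libraries are unmapped samples, given singly or as a range. Counts were summed over cells and expressed as CPM (UMIs per 1000000 UMIs). The size rules and gates are in the report, and the 11 genes of the gate were not tested. Exact 95% intervals are Poisson for CPM and Clopper-Pearson for shares, limits for 0 use 3 counts, and both cover counting error only. The members and the 28 gene lists (557 genes, 555 in the matrix) were chosen with earlier results of these data known. Named genes are the markers, the 15 largest and 10 smallest ratios among called genes, up to 3 higher and 2 lower genes per list, markers of other cell types and Best3. Further genes, such as those leading a group, were chosen after their values were seen.

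The groups come from Leiden clustering (leidenalg 0.10.2, scanpy 1.11.5) on 1000 variable genes, 15 principal components and 15 neighbours, with no integration, at resolution 0.5. Doublets were called by Scrublet and kept, with removal as an alternative. Alternatives changed the Tbx20 threshold, cell filters, reference, minimum CPM, added CPM, weighting and libraries. Tested on simulated counts for 3576 genes, the rule called 100% of 34 genes raised 3-fold and 84.8% of 33 genes lowered 3-fold. It called 0 of 3381 flat genes in either direction. These shares describe the simulated counts only. How often the rule errs where libraries and cell groups differ, as in the real counts, was not tested. Python 3.11.15, numpy 2.4.6, scipy 1.17.1 and pandas 2.3.3 were used.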

Additional observations from a re-analysis of the deposited data

Results flagged for a closer look

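A value was marked where the highest or lowest of the 6 libraries lay far from the others by Dixon's criterion. Of 78 values tested, 12 were marked. Most concern library 2 and Tbx20. Chance marks about 1 in 20 of independent values, but the Tbx20 shares rest on the counts that chose the cells and are not independent. The number marked is therefore not set against chance. In library 2 the Tbx20 fibroblasts were 10.3% of the fibroblast gate, against 0% to 0.989% in the others. Gate cells with 1 Tbx20 UMI were 3.35% in library 2, against 0.141% to 1.26%. Barcodes with at least 2 Tbx20 UMIs outside the gate were 2.84%, against 0.180% to 0.431%. Within other gates, library 2 had at least 2 Tbx20 UMIs in 5.40% of contractile cells, 4.40% of Pecam1 cells and 1.59% of Ptprc cells, against at most 0.844%, 0.928% and 0.158%. In the reference cells, which have 0 Tbx20 UMIs, library 2 was also highest for Gata4 at 3.47 CPM (others at most 0.845), Hand2 at 18.3 CPM (at most 12.7) and Hand2os1 at 12.3 CPM (at most 4.88).

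The 3 remaining values were single libraries of the reference. Ptn was at 33.7 CPM in library 5, against at most 10.8 elsewhere. Bambi was at 64.3 CPM in library 3, against 48.8 to 54.1, and Hes1 was at 71.9 CPM in library 1, against 93.0 to 98.9.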

How the results depend on the processing

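The share of Tbx20 fibroblasts in the gate (1.74%) was 2.74% with 1 or more Tbx20 UMIs, 1.41% with 3 or more and 2.01% with Pecam1 allowed, and ran from 0.403% (without library 2) to 2.09% (without library 5) when each library was left out in turn. The 168 higher genes became 257 at a minimum of 20 CPM, 311 with no minimum, 253 in library 2 alone, 346 in library 2 without group 1 and 85 in group 1 alone, and ran from 119 (without library 2) to 252 (without library 5). The 192 lower genes became 104 with 1 or more Tbx20 UMIs, 362 with no minimum, 381 in library 2 without group 1 and 95 in group 1 alone, and ran from 128 to 255 in the same way. A lower minimum tests more genes. Settings without the cells of library 2 or of library 5 required the direction only in the one that remained. How far this weaker rule moved the counts was not tested, nor was the cause for the other settings. The settings by library, by group and with Pecam1 allowed were chosen after seeing the data.

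Of 73 named genes, Wif1 and 5 called genes changed sign. The log2 ratio of Wif1, 5.71 in all Tbx20 fibroblasts, was -0.22 without library 2, -0.21 in library 5 alone and -0.48 in group 1 alone. The log2 ratio of Coch was -0.05 in group 1 alone. In library 2 without group 1, the log2 ratio of Col8a1 was -0.69, the log2 ratio of Pgf was -0.71 and the log2 ratio of Adamtsl2 was -0.35. With each library left out, the log2 ratio of Synpo2 ran from -0.04 (without library 2) to 1.54 (without library 5). Of the 71 named genes called, 71 kept their call with doublets removed and 42 without library 2. No paired analysis was possible because the matrix columns carry no sample numbers. Ratios moved by more than 1.5 times in 54 of the 73 without library 2, in 23 with 1 or more Tbx20 UMIs, in 9 with 1 CPM added and in 3 against a reference pooled without weights. Values of a few CPM in the 44 cells of library 5 or the 21 of group 3 rest on few UMIs.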
